A study of Homo sapiens with 5 samples.

Results

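The aminoacyl-tRNA synthetases are the enzymes that join each amino acid to its tRNA. The genes described here are 35 synthetase genes, picked by symbol from a table of 18257 genes. Of these, 20 are mainly cytosolic enzymes, and 15, whose symbols end in 2, are mainly mitochondrial enzymes. All 35 symbols were found in the table. A minimum level of 1 CPM (reads scaled to the library's total) in at least 2 libraries was passed by 33 of them, 19 cytosolic and 14 mitochondrial, together with 12234 genes in all. VARS and VARS2, the enzymes for valine in either compartment, did not pass.

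Every library, the mock included, was made from poly(A) RNA of one derivative of HEK293, a line of human embryonic kidney origin. It is labelled HEK293 T-Rex FLAG:DICER1 FLP-IN, so all groups hold a tagged DICER1 insert, and reads of the insert and of the native gene cannot be told apart. DICER1 cuts microRNA precursors in the cytoplasm, and DROSHA acts one step earlier in the nucleus. Libraries were made 18 h after transfection: 2 with siRNAs against DICER1, 2 with siRNAs against DROSHA and 1 mock transfection, with a different siRNA in each knockdown library. The study asked what losing DICER1 does to mRNA levels and used DROSHA siRNA and the mock as its controls. The libraries of a target differ in their siRNA, so the spread behind each p-value includes differences between siRNAs. Whether they also come from separately grown cultures is not labelled, and that spread may hold no difference between cultures.

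Cytosolic synthetases charge tRNAs for the ribosomes that translate nuclear-encoded mRNA. Several of them sit with scaffold proteins in the multisynthetase complex. Mitochondrial synthetases are also encoded in the nucleus and are imported to charge the tRNAs of the mitochondrial genome, whose mRNAs encode subunits of the respiratory chain. GARS and KARS, the enzymes for glycine and lysine, serve both compartments from one gene. When amino acids are short, uncharged tRNA activates the kinase GCN2, and the transcription factor ATF4 then raises many cytosolic synthetase genes in human and mouse cells through a promoter element called CARE.

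Matches to the CARE letters were counted in both classes, and they are printed because most of them fell in cytosolic genes. RefSeq promoter windows on GRCh38.p14, from 250 bases before to 50 bases after each annotated start, matched 29 members, and 9 of these had more than 1 window. DARS, LARS, VARS, YARS, AARS2 and VARS2 had no entry. The letters TGATGNAA, read on both strands, stood in a window of 7 of 16 cytosolic genes (43.8%) and 1 of 13 mitochondrial genes (7.69%). Of all 27305 genes with a window, 4.46% held them. Each match follows with 11 bases on each side, 5′ to 3′ on the gene's strand, with the matched letters in capitals.
AARS, chr16:70289675-70289704, minus strand: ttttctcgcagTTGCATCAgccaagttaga
CARS, chr11:3057407-3057436, minus strand: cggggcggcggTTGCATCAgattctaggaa
GARS, chr7:30594834-30594863, plus strand: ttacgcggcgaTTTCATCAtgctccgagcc
IARS, chr9:92293692-92293721, minus strand: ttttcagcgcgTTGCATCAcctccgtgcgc
MARS, chr12:57488053-57488082, plus strand: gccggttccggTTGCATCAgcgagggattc
NARS, chr18:57621804-57621833, minus strand: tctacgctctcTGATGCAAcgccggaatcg
TARS, chr5:33440956-33440985, plus strand: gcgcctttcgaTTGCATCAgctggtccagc
YARS2, chr12:32756076-32756105, minus strand: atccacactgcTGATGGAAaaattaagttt

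Counts of other promoter letters are likewise descriptions with no test. The CCAAT box (CCAAT) stood in 7 of 16 cytosolic genes (43.8%) and 8 of 13 mitochondrial genes (61.5%), beside 39.7% of all genes. The E-box CACGTG stood in 1 cytosolic gene, IARS, and in CARS2, EARS2 and MARS2, beside 8.77% of all genes. The ETS letters CCGGAAG stood in 9 of 16 cytosolic (56.2%) and 7 of 13 mitochondrial genes (53.8%), beside 12.2% of all genes. A match of letters is not a bound site.

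HARS and HARS2, the cytosolic and mitochondrial enzymes for histidine, stand back to back on chromosome 5, and their windows overlap by 184 bases. The 84 bases between their annotated starts are shown because both genes share them. On the strand of HARS2, with ETS letters in capitals on either strand, they lie on GRCh38.p14 at chr5:140691371-140691454.
HARS and HARS2, shared stretch: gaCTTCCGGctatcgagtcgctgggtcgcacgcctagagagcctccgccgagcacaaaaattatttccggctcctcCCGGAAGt
The ETS letters were added to the search after this stretch was seen. None of the CARE, E-box and CCAAT letters lies in it.

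The targeted genes were low in the libraries labelled for them. DICER1 had 74.0 and 67.7 CPM in the DICER1 siRNA libraries, against 243 CPM in the mock. In the DROSHA siRNA libraries it was above the mock, at 282 and 332 CPM. Its log2 fold change there was 0.34 ± 0.12 (SE, adjusted p = 0.979, edgeR). DROSHA had 41.2 and 41.9 CPM in the DROSHA siRNA libraries, against 191 CPM in the mock. In the DICER1 siRNA libraries DROSHA had 194 and 193 CPM. Total counts lay between 7620206 and 8736455. The 6 HEK293 markers looked at (PAX2, LHX1, EYA1, NEFL, NEFM and VIM) all passed the CPM minimum, with a summed level of 628 and 650 CPM in the DICER1 libraries, 572 and 546 CPM in the DROSHA libraries and 566 CPM in the mock. Of 10 markers of other cell types, 9 were matched in the table. COL1A1 alone passed the minimum, and PTPRC had no read. The 9 summed to 8.24 and 8.54 CPM in the DICER1 libraries and 7.23 and 6.75 CPM in the DROSHA libraries. In the mock they summed to 7.84 CPM. Most of the HEK293 sum was VIM and NEFL, at 422 and 128 CPM in the mock. PAX2, LHX1, EYA1 and NEFM had 4.40, 3.21, 6.65 and 1.31 CPM there, beside 6.89 CPM for COL1A1. In DROSHA against mock 3 of the 6 fitted higher and 3 lower, among the latter PAX2 at 2.29 and 2.04 CPM.

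At the level of the classes, cytosolic synthetase mRNAs were the more abundant in all 5 libraries. In bulk RNA, fewer cells of a kind and less RNA per cell cannot be told apart. The 19 cytosolic genes together held 0.493% and 0.501% of all counted reads in the DICER1 libraries, 0.491% and 0.502% in the DROSHA libraries, and 0.493% in the mock. The 14 mitochondrial genes held 0.102% and 0.101% in the DICER1 libraries, 0.103% and 0.0989% in the DROSHA libraries, and 0.0999% in the mock. Per exon length (RPKM, the CPM divided by the exon length in kilobases, with GENCODE 29 lengths), the cytosolic median was 78.8 and 83.4 RPKM in the DICER1 libraries, 81.7 and 83.4 RPKM in the DROSHA libraries, and 82.5 RPKM in the mock. The mitochondrial median was 23.2 and 22.0 RPKM in the DICER1 libraries, 22.8 and 22.6 RPKM in the DROSHA libraries, and 20.5 RPKM in the mock. The median over all tested genes in the mock was 9.71 RPKM.

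**Figure D1:**
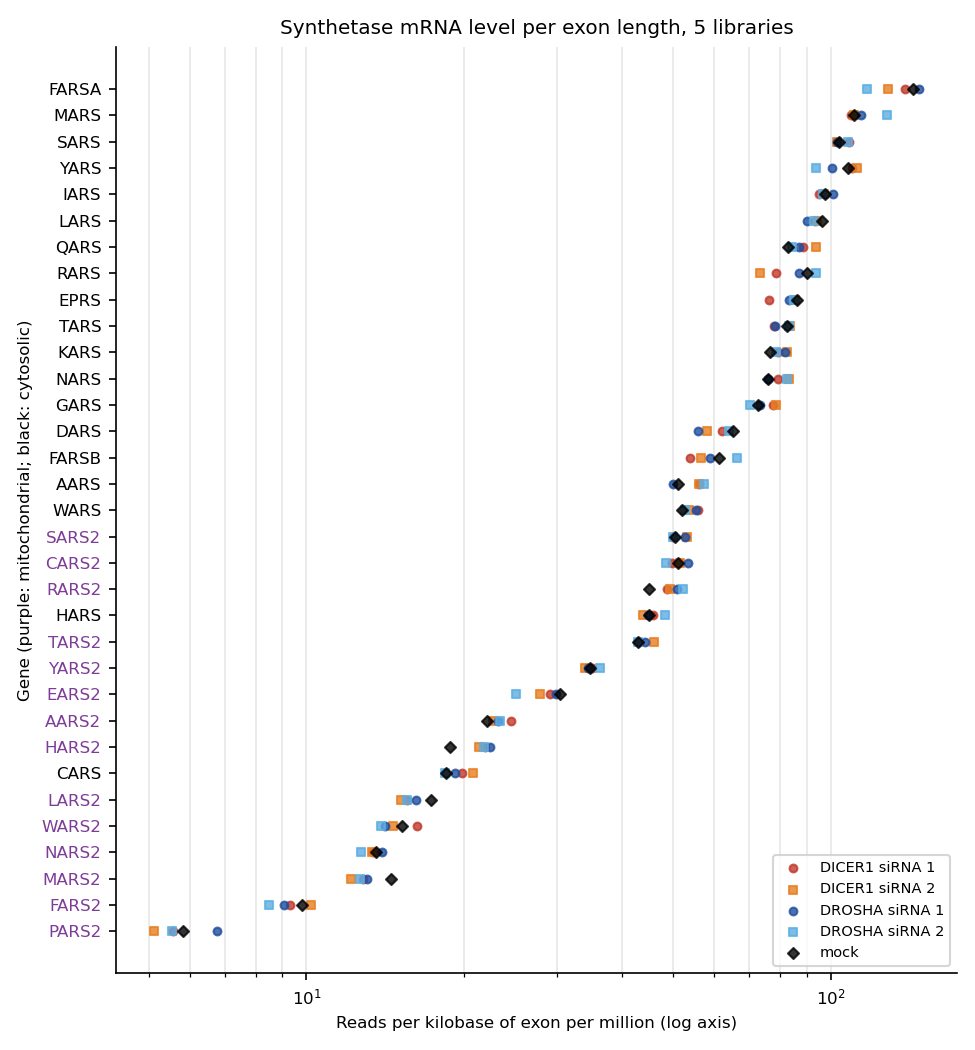
Level of each of the 33 measured synthetase mRNAs per exon length (RPKM, log axis), with 1 point per library and mitochondrial genes in purple. The 17 highest genes are cytosolic, SARS2 is the highest mitochondrial one, and HARS and CARS are the 2 cytosolic genes that stand among the mitochondrial ones.

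Ordered by mean level over the 5 libraries, FARSA, the catalytic subunit of the enzyme for phenylalanine, stood first at 135 ± 12.2 RPKM (SD, n = 5, knockdowns and mock together). MARS, the methionine enzyme, followed at 115 ± 7.61 RPKM, SARS, the serine enzyme, at 105 ± 2.91 RPKM and YARS, the tyrosine enzyme, at 105 ± 7.58 RPKM. The cytosolic genes IARS, LARS, QARS, RARS, EPRS, TARS, KARS, NARS, GARS, DARS, AARS, WARS and HARS lay between 97.5 RPKM for IARS and 45.6 RPKM for HARS. FARSB, which pairs with FARSA in one enzyme, stood at 59.4 ± 4.70 RPKM. The lowest cytosolic gene was CARS, the cysteine enzyme, at 19.3 ± 1.01 RPKM. The highest mitochondrial members were SARS2, CARS2 and RARS2, for serine, cysteine and arginine, at 51.3 ± 1.55, 50.9 ± 1.88 and 49.3 ± 2.71 RPKM. TARS2, YARS2, EARS2, AARS2, HARS2, LARS2, WARS2, NARS2 and MARS2 followed between 43.8 RPKM for TARS2 and 13.0 RPKM for MARS2. FARS2 and PARS2, for phenylalanine and proline, were lowest at 9.38 ± 0.661 and 5.76 ± 0.605 RPKM. Most neighbours in this order cannot be ranked: in 24 of 32 steps from one gene to the next the ranges over libraries overlapped. The 8 steps without overlap were those from MARS to SARS, GARS to DARS, TARS2 to YARS2, YARS2 to EARS2, EARS2 to AARS2, CARS to LARS2, MARS2 to FARS2 and FARS2 to PARS2.

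IARS2, the mitochondrial enzyme for isoleucine, is in the table and is not among the 15 mitochondrial genes described. It stood above each of the 14 measured ones, at 105.7 ± 4.34 RPKM (SD, n = 5). The exon lengths come from all annotated exons of a gene, not from the isoforms these cells use.

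Enzymes for the same amino acid were compared in 13 pairs, as the ratio of the cytosolic to the mitochondrial level per length. FARS2 stands in a pair with FARSA and again with FARSB, which form one enzyme, so the pairs are not all separate. EPRS, which charges both glutamate and proline, was not paired with EARS2 or PARS2. The cytosolic gene was higher in 12 pairs in all 5 libraries. For FARSB over FARS2 the ratio was 6.38 ± 0.883 (SD over 5 libraries). The ratio was widest for FARSA over FARS2, at 14.4 ± 1.37 (SD over 5 libraries), and for MARS over MARS2, at 8.84 ± 0.895. It was 2.15 ± 0.161 for HARS over HARS2 and 1.72 ± 0.191 for RARS over RARS2. The cysteine pair ran the other way, with CARS over CARS2 at 0.380 ± 0.0205. Outside these pairs, IARS over IARS2 lay between 0.875 and 0.984, so that this mitochondrial mRNA too was above its cytosolic partner.

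**Figure D2:**
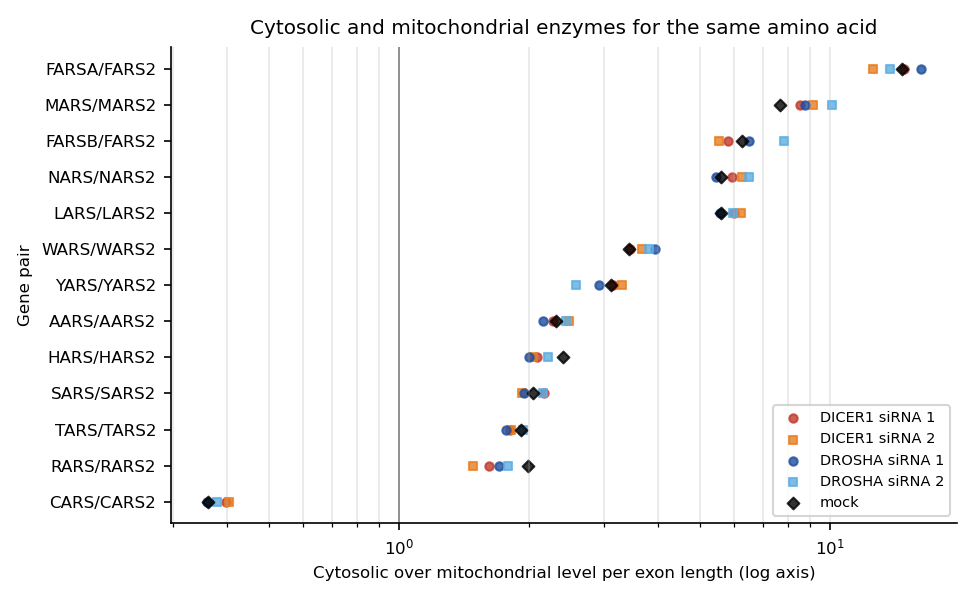
Ratio of the cytosolic to the mitochondrial synthetase level per exon length for 13 pairs of genes, with 1 point per library (log axis, grey line at equal levels). CARS over CARS2 is the only pair below the line, at 0.359 to 0.404 over the 5 libraries.

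VARS and VARS2 were close to unread. VARS had 1 read in DROSHA siRNA 1 and none in the other libraries, and VARS2 had 1 read in DICER1 siRNA 1 and none in the others. A count of 0 allows a level of up to 0.392 and 0.361 CPM in the DICER1 libraries, 0.344 and 0.382 CPM in the DROSHA libraries and 0.357 CPM in the mock (3 counts, counting error only). The lowest value of any measured cytosolic member was that of CARS, at 57.3 CPM in DROSHA siRNA 2, and of any mitochondrial member that of PARS2, at 12.0 CPM in DICER1 siRNA 2. Both valine genes are on chromosome 6, in the region of the major histocompatibility complex. Of the 30 genes of the table nearest to VARS in RefSeq order, 26 had at most 3 reads in every library, as had 20 of the 30 nearest to VARS2, beside 26.1% of 17954 placed genes. Between the pair lie 41 genes, of which 30 had at most 3 reads in every library, and the highest, HLA-B, had 283 and 275 reads in the DICER1 libraries, 248 and 220 in the DROSHA libraries and 311 in the mock. The sources used here do not say how reads in this region were assigned, and the zeros of VARS and VARS2 give no measure of their mRNA.

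In the DICER1 knockdown no synthetase gene passed the test. Of 33 members 0 were called by edgeR's quasi-likelihood test, where 0.00817% of all tested genes were called, DICER1 alone. The cytosolic median log2 fold change was -0.01 over 19 genes and the mitochondrial median -0.005 over 14, beside 0.0005 over all tested genes. With library totals alone as the scaling, both class medians were 0.01. Of the members 15 lay above 0, beside 50.1% of all genes. At an unadjusted p under 0.05 stood 1 member, beside 5.46% of all genes. DESeq2 and edgeR's likelihood ratio test also called 0 members. Both DICER1 libraries were above, or both below, the mock for 24 of 33 members (72.7%), 12 above and 12 below, beside 73.1% of all tested genes, 36.7% above and 36.4% below.

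The gene at an unadjusted p under 0.05 was RARS, the arginine enzyme of the multisynthetase complex. It had 178 and 166 CPM in the DICER1 libraries, against 204 CPM in the mock, and 197 and 212 CPM in the DROSHA libraries. Both DICER1 libraries were the lowest of the 5. The fitted log2 fold change was -0.24 ± 0.09 (SE), and edgeR's adjusted p was 0.865. The unadjusted p was 0.0369 by edgeR's quasi-likelihood test. It was above 0.05 with library totals as the scaling (0.0523), with DESeq2 (0.152) and with the likelihood ratio test (0.0802). A fit without DICER1 siRNA 1 or DICER1 siRNA 2 leaves 1 library against 1, so its p-values are not given. Leaving out 1 siRNA library at a time gave log2 fold changes from -0.29 to -0.19 for RARS. RARS2, its mitochondrial counterpart, had 88.6 and 89.9 CPM in the DICER1 libraries, against 82.0 CPM in the mock, a log2 fold change of 0.12.

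Of the remaining members with the smallest p, QARS, the glutamine enzyme, had 256 and 271 CPM in the DICER1 libraries, against 240 CPM in the mock. Its log2 fold change was 0.14 ± 0.08 (adjusted p = 0.870, edgeR). Among mitochondrial members HARS2 had 62.1 and 60.6 CPM, against 53.2 CPM in the mock, a log2 fold change of 0.20 ± 0.11 (adjusted p = 0.870, edgeR). MARS2, the mitochondrial methionine enzyme, had 38.7 and 36.7 CPM, against 43.7 CPM in the mock, a log2 fold change of -0.21 ± 0.12 (adjusted p = 0.870, edgeR). In each of these genes both DICER1 libraries lay on one side of the single mock, whose own spread is not known.

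**Figure D3:**
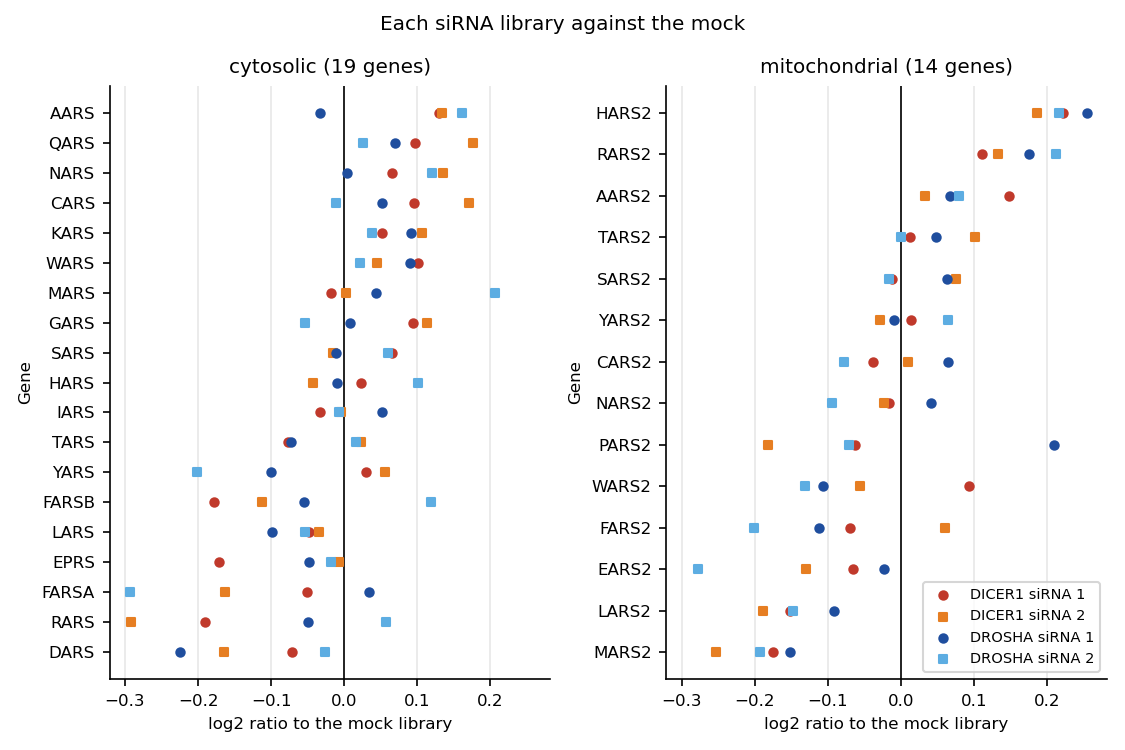
Log2 ratio of each siRNA library to the mock for the 19 cytosolic and 14 mitochondrial synthetases, sorted by the mean of the 4 libraries. HARS2 and RARS2 have all 4 points above 0, MARS2 and LARS2 have all 4 below, and in RARS both DICER1 points lie below both DROSHA points.

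The libraries of the DROSHA knockdown gave the same count. Of 33 members 0 were called by edgeR's quasi-likelihood test, where 0.00817% of all tested genes were called, DROSHA alone. No member stood at an unadjusted p under 0.05, beside 3.69% of all genes, and DESeq2 and the likelihood ratio test called 0. The cytosolic median log2 fold change was 0.02 and the mitochondrial median 0.01, beside -0.005 over all tested genes. Both DROSHA libraries were above, or both below, the mock for 18 members (54.5%), 9 above and 9 below, beside 63.9% of all tested genes, 31.5% above and 32.4% below. Of the members 19 had a log2 fold change above 0, beside 48.7% of all genes.

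The smallest p in this comparison belonged to HARS2. It had 63.6 and 61.9 CPM in the DROSHA libraries, against 53.2 CPM in the mock, a log2 fold change of 0.24 ± 0.11 (adjusted p = 0.979, edgeR). HARS, with which it shares the stretch printed above, had 190 and 205 CPM, against 191 CPM in the mock, a log2 fold change of 0.05. HARS2 was thus above the mock in all 4 siRNA libraries, while HARS lay on both sides of it, in a comparison where every library is set against the same mock. HARS and HARS2 are close copies, and whether reads were shared between them was not tested.

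RARS2 had 92.6 and 95.03 CPM in the DROSHA libraries, against 82.0 CPM in the mock, a log2 fold change of 0.19 ± 0.10 (adjusted p = 0.979, edgeR). YARS had 325 and 304 CPM, against 349 CPM in the mock, a log2 fold change of -0.15 ± 0.08 (adjusted p = 0.979, edgeR). MARS had 332 and 372 CPM, against 322 CPM in the mock, a log2 fold change of 0.13 ± 0.09 (adjusted p = 0.979, edgeR), which was 0.20 without DROSHA siRNA 1 and 0.04 without DROSHA siRNA 2. The span of MARS overlaps those of DDIT3 and ARHGAP9 in RefSeq, that of YARS overlaps S100PBP, that of CARS2 overlaps ING1, that of EARS2 overlaps GGA2 and that of FARS2 overlaps LYRM4. The sources used here do not say if strand was used in counting, and without it such neighbours' reads cannot be told apart.

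The DROSHA siRNA libraries differed from each other in some members. FARSA had 308 CPM in siRNA 1 and 245 CPM in siRNA 2, EARS2, the mitochondrial glutamate enzyme, had 136 and 114 CPM, and MARS had 332 and 372 CPM. In DROSHA siRNA 2 the log2 ratio to the mock was -0.29 for FARSA, 0.21 for MARS, -0.20 for YARS and -0.28 for EARS2. In DROSHA siRNA 1 it was 0.03, 0.04, -0.10 and -0.02 for the same genes. A fit without DROSHA siRNA 1 leaves 1 library against 1 and assumes the spread of the DICER1 pair, so its p-values for single members are not given. The mitochondrial median was then -0.08. Over all genes the count of calls was 233 without that library, against 1 with all libraries.

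Compared directly, DICER1 and DROSHA libraries also gave 0 called members, where 0.0163% of all tested genes were called, the DICER1 and DROSHA genes themselves. DESeq2 and the likelihood ratio test called 0 members as well. RARS and YARS stood at an unadjusted p under 0.05, 2 of 33 members (6.06%), beside 8.34% of all genes. RARS was lower in the DICER1 libraries, at 172 ± 8.49 CPM (SD, n = 2), than in the DROSHA libraries, at 204 ± 10.8 CPM, a log2 fold change of -0.25 ± 0.08 (adjusted p = 0.523, edgeR). YARS was higher, at 360 ± 4.55 CPM in the DICER1 libraries against 315 ± 15.5 CPM in the DROSHA libraries, a log2 fold change of 0.19 ± 0.06 (adjusted p = 0.523, edgeR). Neither passed. The unadjusted p was above 0.05 for RARS without DICER1 siRNA 2, for YARS without DICER1 siRNA 1, without DICER1 siRNA 2 and by the likelihood ratio test, and for both genes by DESeq2. The mitochondrial members with the smallest p were WARS2 and PARS2, and their values moved when a library was left out. WARS2, for tryptophan, had 46.0 and 41.5 CPM in the DICER1 libraries, against 40.04 and 39.4 CPM in the DROSHA libraries, a log2 fold change of 0.14 ± 0.10 (adjusted p = 0.746, edgeR) that was 0.06 without DICER1 siRNA 1 and 0.21 without DICER1 siRNA 2. PARS2 had 13.1 and 12.0 CPM in the DICER1 libraries, against 15.8 and 13.0 CPM in the DROSHA libraries, a log2 fold change of -0.20 ± 0.16 (adjusted p = 0.758, edgeR) that was -0.05 without DROSHA siRNA 1 and -0.34 without DROSHA siRNA 2. The groups did not overlap for 12 of 33 members (36.4%), 7 higher and 5 lower, beside 40.9% of all tested genes, 20.9% higher and 20% lower. Of the members 20 lay above 0, beside 51.1% of all genes. The class medians were 0.01 for cytosolic and -0.003 for mitochondrial genes, beside 0.004 over all tested genes.

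When both knockdowns were set against the mock together, 0 of 33 members were called by edgeR's quasi-likelihood test, beside 0.00817% of all tested genes, DROSHA alone. None was at an unadjusted p under 0.05, beside 3.69%, and DESeq2 and the likelihood ratio test called 0. All 4 siRNA libraries were above, or all below, the mock for 14 members (42.4%), 8 above and 6 below, beside 38.5% of all tested genes, 19.4% above and 19% below. Those above were KARS, NARS, QARS, WARS, AARS2, HARS2, RARS2 and TARS2, and those below were DARS, EPRS, LARS, EARS2, LARS2 and MARS2. Of the members 17 had a positive log2 fold change, beside 48.3% of all genes. The cytosolic median was 0.02 and the mitochondrial median -0.02. HARS2 had the smallest p, with a log2 fold change of 0.22 ± 0.10 (adjusted p = 0.972, edgeR). MARS2 stood at -0.19, RARS at -0.12 and QARS at 0.09, with the same adjusted p.

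**Figure D4:**
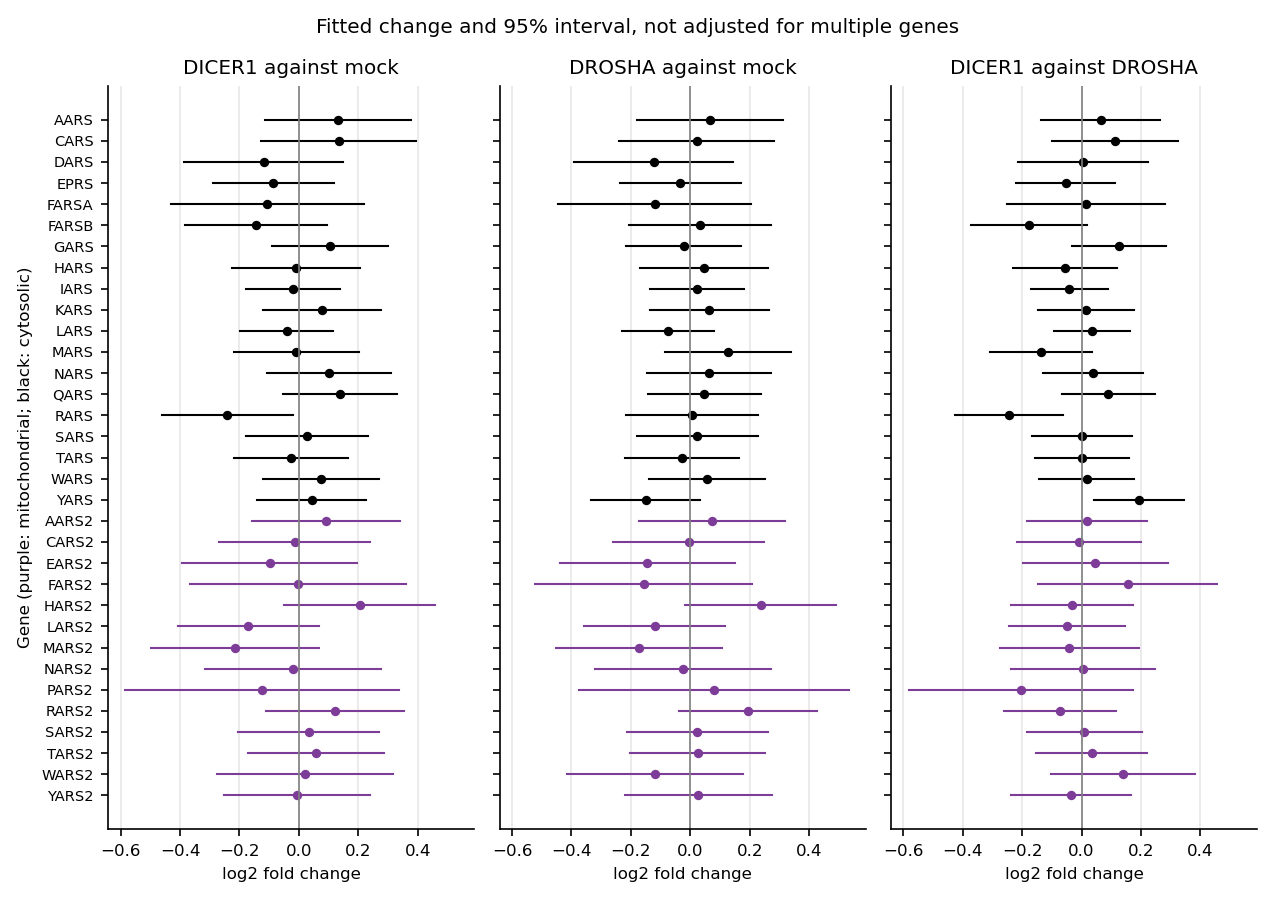
Fitted log2 fold change (point) and 95% interval (line, not adjusted for the number of genes) of the 33 measured synthetases in 3 comparisons, with mitochondrial genes in purple. Intervals leave out 0 in the DICER1 and mock panel for RARS and in the DICER1 and DROSHA panel for RARS and YARS, and in the first panel 32 of 33 lie within 0.5 of 0.

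These intervals show how large a change the libraries leave room for, given the spread of the siRNA pairs. The single mock has no measured spread, and the intervals against it assume that of the siRNA pairs. In DICER1 against mock the 95% interval lay within a log2 fold change of 0.5 either way for 32 of 33 members, the exception being PARS2, the least abundant one, at -0.59 to 0.34. In DROSHA against mock it did for 31 members, the exceptions being PARS2 and FARS2. Standard errors lay between 0.07 and 0.19 in both comparisons. The spread of the members among themselves is given as a description. The SD of the log2 ratios to the mock was 0.10 and 0.12 over cytosolic genes in the DICER1 libraries and 0.08 and 0.12 in the DROSHA libraries. Over mitochondrial genes it was 0.11 and 0.13 in the DICER1 libraries and 0.12 and 0.15 in the DROSHA libraries. The mean level of 8881 tested genes lay in the members' range, 13.5 to 467 CPM. Over these genes the SD was 0.17 and 0.22 in the DICER1 libraries and 0.17 and 0.25 in the DROSHA libraries. PARS2 sets the low end of that range, and no measured cytosolic member fell under 57.3 CPM in any library. These genes are thus not matched in level to either class, and low counts carry more counting error.

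The contrast of the 2 classes took either sign. The cytosolic minus the mitochondrial median log2 ratio to the mock was 0.04 and 0.008 in DICER1 siRNA 1 and 2, and -0.05 and 0.10 in DROSHA siRNA 1 and 2. The DROSHA libraries thus lay on both sides of 0, and farther from each other than the DICER1 libraries. In the fit over all libraries the class difference was -0.004 for DICER1 against mock, 0.01 for DROSHA against mock and 0.02 for DICER1 against DROSHA. Members are not replicates, so no test of the classes is given.

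Within the cytosolic class, the 8 members of the multisynthetase complex (DARS, EPRS, IARS, KARS, LARS, MARS, QARS and RARS) had a median log2 fold change of -0.03 in DICER1 against mock, with 6 below 0. The 11 measured cytosolic enzymes outside it had a median of 0.04, with 4 below 0. In DROSHA against mock the medians were 0.01 and 0.02. The 3 scaffold genes of the complex passed no test. EEF1E1 stood at -0.28 ± 0.14 and AIMP2 at -0.21 ± 0.13 in DICER1 against mock (edgeR adjusted p = 0.870 and 0.877), and AIMP1 at -0.04.

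Cytosolic genes were also divided by the CARE letters printed above. In DICER1 against mock the 7 genes with the letters had a median log2 fold change of 0.10, from -0.03 in TARS to 0.13 in CARS, with 4 above 0. The 9 cytosolic genes whose window lacked them had a median of -0.01, also with 4 above 0. In DROSHA against mock the medians were 0.02 with the letters and 0.03 without. AARS, NARS, CARS and GARS were the 4 above 0 after DICER1 siRNA, at 0.13, 0.10, 0.13 and 0.10, none of them past the test.

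Other genes of the amino acid response gave values on the higher side in the DICER1 libraries without a call. Of 28 ATF4 and amino acid response genes, 26 had a log2 fold change above 0 in DICER1 against mock, beside 50.1% of all tested genes. The median was 0.21, 9 were at an unadjusted p under 0.05, beside 5.46% of all tested genes, and 0 were called. In DROSHA against mock the median was 0.06, with 20 above 0, beside 48.7%, and 2 at an unadjusted p under 0.05, beside 3.69%. Of this list SESN2, an inhibitor of mTORC1, had 116 and 134 CPM in the DICER1 libraries, against 78.4 CPM in the mock (adjusted p = 0.865, edgeR). ASNS, asparagine synthetase and a textbook ATF4 target, had 195 and 219 CPM in the DICER1 libraries and 181 and 168 CPM in the DROSHA libraries, against 169 CPM in the mock. In the direct comparison of DICER1 with DROSHA its log2 fold change was 0.25 ± 0.08 (adjusted p = 0.541, edgeR). The list was chosen with earlier results of these data known, so its direction is not independent evidence.

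**Figure D5:**
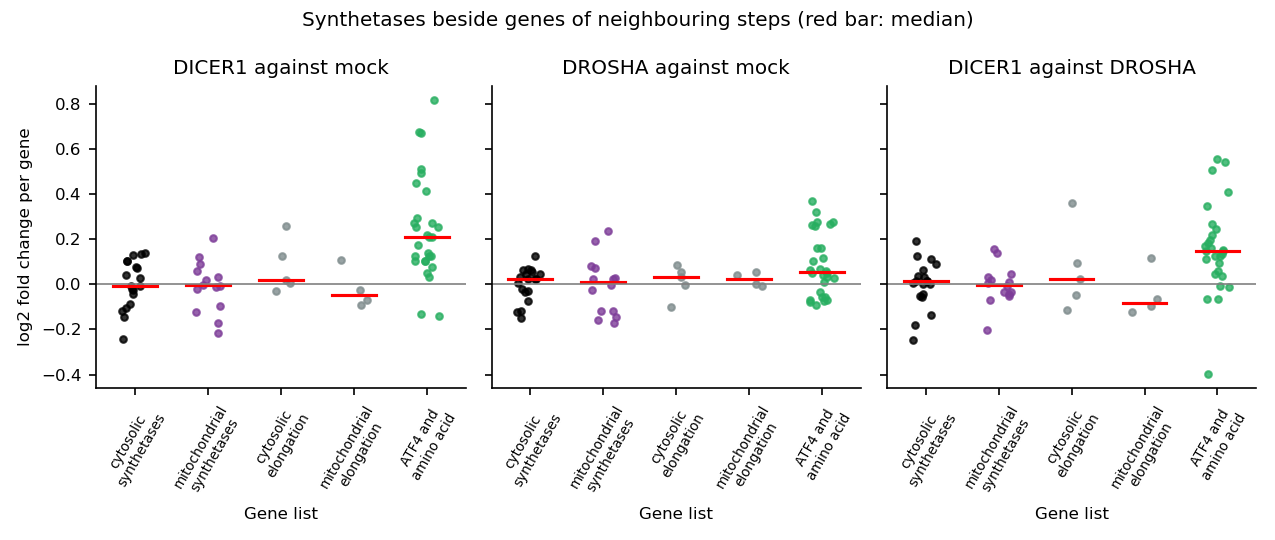
Log2 fold change of each measured gene of 5 lists in 3 comparisons, with a red bar at the median of each list. The medians of the cytosolic and mitochondrial synthetases lie between -0.01 and 0.02 in all 3 panels, and that of the ATF4 and amino acid genes at 0.21, 0.06 and 0.15.

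Genes of the steps around charging passed no test either. Among cytosolic elongation factors, which bring charged tRNA to the ribosome and move it along, 5 of 6 were measured. The remaining one, EEF1G, had 1 read in the mock, 1 in DROSHA siRNA 1 and none in the other libraries. Near-zero counts were thus not limited to VARS and VARS2, and their cause was not tested. The measured factors had a median log2 fold change of 0.02 in DICER1 against mock. EEF2, the translocase, had the smallest p there, with a log2 fold change of 0.13 ± 0.04 (adjusted p = 0.865, edgeR). The 4 mitochondrial elongation factors had a median of -0.05 in DICER1 against mock and 0.02 in DROSHA against mock. The 4 measured genes for charging by amidation and formylation in mitochondria (QRSL1, PET112, GATC and MTFMT) had medians of 0.02 and -0.03. XPOT, the exporter of tRNA, stood at 0.04 in DICER1 against mock and -0.04 in DROSHA against mock. XPO5, which exports microRNA precursors, had 344 and 347 CPM in the DICER1 libraries, against 315 and 282 CPM in the DROSHA libraries, a log2 fold change of 0.21 ± 0.07 (adjusted p = 0.533, edgeR). Of 8 other measured genes of tRNA charging and related steps 0 were called. IARS2 stood at -0.08 in DROSHA against mock, and PUSL1, a pseudouridine synthase-like gene that does not act in charging, at 0.26 ± 0.11 (adjusted p = 0.979, edgeR). Of 9 genes of the amino acid sensing kinase pathway 0 were called in any comparison. PPP1R15A, which directs a phosphatase to eIF2 alpha, stood at 0.39 ± 0.11 in DICER1 against mock, and PPP1R15B at -0.35 ± 0.11 (edgeR adjusted p = 0.865 for both).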

How the data were processed

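The authors deposited raw read counts per gene symbol for 5 libraries. The submitters' processing notes name hg19 and the tools CASAVA (1.8.2), HTSeq, STAR and edgeR without their roles. Annotation release and strand setting are not given in the sources used here. Columns were matched to samples by name, with 0 left unused, and 2602 genes had no read. The filter of 1 CPM in 2 or more libraries kept 12234 genes with 99.9% of reads. Testing was by edgeR's quasi-likelihood F test after TMM scaling (edgeR 4.0.16, R 4.3.3), with all 5 libraries in one fit and group as the term, so the single mock borrows the spread of the siRNA pairs (2 residual degrees of freedom). Calls used a Benjamini-Hochberg adjusted p under 0.05 over all tested genes. Standard errors are the log2 fold change over the root of F. Log2 ratios of single libraries used a prior count of 2. DESeq2 1.42.0 and edgeR's likelihood ratio test were alternatives, and steps were tested on simulated data. CPM were scaled by total and TMM factor. Precision of each value is limited by counting and by 1 to 2 libraries per group. Exon lengths and GC content came from GENCODE 29 (GRCh38) for all 35 members. Every member is named, with statistics for those at an unadjusted p under 0.05 or the 2 smallest p of a class, and companion genes by smallest p. Genes named beyond this were chosen after their values were seen. Members and lists were chosen with earlier results of these data known. An alternative make-up of the mitochondrial class, added after seeing the data, is not reported here.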

Additional observations from a re-analysis of the deposited data

How the results depend on the processing

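In each comparison 0 synthetase genes were called under every alternative run, namely RLE factors, library totals alone, no filter, a minimum of 5 CPM in every library, DESeq2, the likelihood ratio test, leaving out each siRNA library, only the groups compared, and, for DICER1 against DROSHA, the siRNA number as a replicate block. The lowest member adjusted p was 0.0688, for YARS in DICER1 against DROSHA without DROSHA siRNA 1. The members followed one by one kept their sign in each, but sizes moved when a library was left out: MARS in DROSHA against mock ran from 0.044 to 0.204, and in DICER1 against DROSHA PARS2 ran from -0.336 to -0.052 and WARS2 from 0.061 to 0.213. Near 0, signs did change: 10 members changed sign in DROSHA against mock without DROSHA siRNA 2, the largest at a log2 fold change of 0.12 with all libraries. The fit with the replicate block used the 4 siRNA libraries without the mock. There RARS and YARS were at an unadjusted p under 0.05, the lowest member adjusted p was 0.493, and 3 genes in all were called, against 2 in the same libraries without the block and 2 with all 5 libraries. The siRNA numbers mark different siRNAs, and the deviations of equal numbers correlated at 0.0243 over genes. Whether equal numbers share a culture or batch is not labelled, and this correlation cannot decide it.

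Counts over all genes moved more. In DICER1 against mock, 1 with all libraries, it was 3 without a filter, 5 with DESeq2, 29 with the likelihood ratio test, 7 with only the groups compared and 0 to 7 leaving out a library. In DROSHA against mock it was 3 with the likelihood ratio test and 1 to 233 leaving out a library. In DICER1 against DROSHA, 2 in the main test, it was 12 without a filter, 24 with DESeq2, 130 with the likelihood ratio test and 1 to 462 leaving out a library. For both knockdowns against mock it was 2, 7 and 0 to 59 with DESeq2, the likelihood ratio test and a library left out. The highest of these counts, 233, 462 and 59, all came without DROSHA siRNA 1.

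Class medians (log2) moved by more than the spread between siRNA libraries as follows. In DICER1 against mock the cytosolic median was 0.011 with library totals, 0.017 with the expression trend removed, 0.022 with GC, length and expression trends removed and -0.011 to 0.024 leaving out a library. The mitochondrial one was 0.015 with library totals and -0.014 to -0.0044 leaving out a library, and their difference was 0.026 and 0.027 with the trends removed and -0.0037 to 0.038 leaving out a library. In DROSHA against mock, leaving out a library gave -0.0093 to 0.022 for cytosolic and -0.078 to 0.045 for mitochondrial genes, and in DICER1 against DROSHA -0.019 to 0.037 for cytosolic genes. For both knockdowns against mock the cytosolic median was 0.036 with library totals, 0.0016 without GARS and KARS, 0.0015 as a mean, 0.035 and 0.040 with the trends removed and 0.0026 to 0.035 leaving out a library. The cause of these shifts was not tested. Depth limits PARS2 and FARS2 most, the least abundant members.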
